A study of Mus musculus with 9 samples.

Results

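The comparison set dendritic cells of the mouse Peyer's patch that carry C5aR, a receptor of complement fragment C5a, against otherwise similar cells without it. Both are LysoDC, dendritic cells of the patch that express lysozyme, and the groups were 3 arrays titled C5aR plus and 3 titled C5aR minus, 6 of the 9 arrays of the series. The 3 arrays of lysozyme-expressing macrophages (LysoMac) entered the fit only for its estimate of the spread. Peyer's patch cells were released with collagenase D and DNase I, freed of dead cells, enriched for CD11c on beads and sorted by staining for MHC class II, CD4, C5aR, BST2, SIRP and CD11c. The sources used here give no genotype, strain, age, pooling of animals or gates, and no treatment is named for any group. The source fields of C5aR- arrays 2 and 3 name C6aR and C7aR, while their titles and descriptions name C5aR, so the titles were followed.

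Peyer's patches are lymphoid follicles of the gut wall, covered by an epithelium whose M cells pass bacteria and particles to phagocytes lying below. C5aR is a G-protein-coupled chemoattractant receptor, best known from neutrophils, monocytes and macrophages. Dendritic cells of the conventional lineage depend on the cytokine receptor Flt3 and can carry CD103, the integrin chain encoded by Itgae. Macrophages depend on the receptor Csf1r and express lysosomal, complement and efferocytosis genes, the last being those for taking up dying cells.

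All 33793 transcript clusters (the probe set of a gene on the array) were tested with limma, and 22180 genes had a cluster with 1 gene symbol. Values are on a log2 scale, array medians lay between 3.39 and 3.65, and a difference is C5aR+ minus C5aR- LysoDC, so that 1 is a doubling. Errors are standard errors from the fit, with 3 arrays per population. The labels do not tell whether each array stands for another animal, so the spread behind the p-values may be technical. C5aR+ array 3 was closest to the C5aR- array of the same number, at a correlation of 0.982. It correlated at 0.974 with each other C5aR+ array, and at 0.970 and 0.971 with C5aR- arrays 1 and 2. RNA of sorted cells was measured in bulk, so fewer cells of a type and less RNA per cell cannot be told apart. Where a population averaged below the median of every array its value may be background, and the difference is given as a lower bound with no fold.

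The labels were checked first against lysozyme and the genes targeted by the sort. C5ar1, which encodes C5aR, read 4.92, 4.09 and 5.04 in the C5aR+ arrays and 3.04, 2.72 and 3.27 in the C5aR- arrays. The arrays did not overlap, and every C5aR- value lay below the array medians. The difference of 1.67 ± 0.29, a lower bound, did not pass the test (adjusted p = 0.105). CD11c (Itgax) read 11.04, 10.63 and 11.08 against 10.89, 10.75 and 11.13, and the lysozyme gene Lyz2 read 10.88, 11.30 and 10.94 against 10.93, 10.35 and 10.62. Both genes thus stood far above the array medians in all 6 arrays, and the arrays of the populations overlapped. H2-Ab1, an MHC class II chain, lay between 11.93 and 12.19 in all 6 arrays, again with overlap. Of the 10 sort and lysozyme genes, C5ar1 was the only one whose arrays did not overlap.

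**Figure D1:**
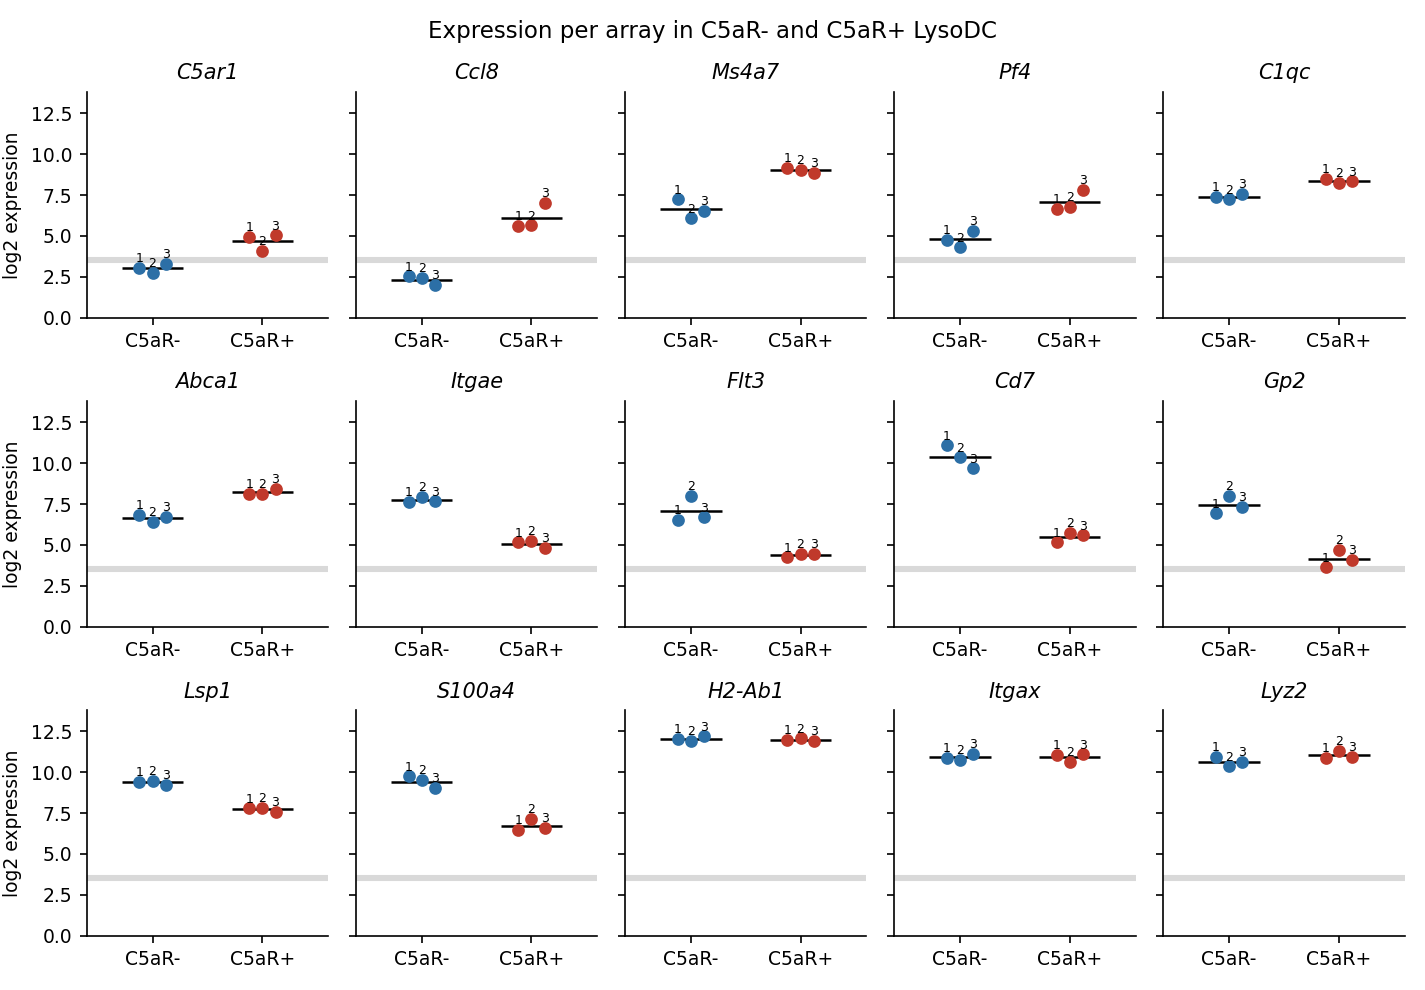
Log2 expression of 15 genes in the 3 C5aR- (blue) and 3 C5aR+ (red) LysoDC arrays. Points are arrays with their replicate numbers, bars are means, and the grey band spans the array medians from 3.39 to 3.65. Arrays of the 2 populations overlap for H2-Ab1, Itgax and Lyz2 and are separate for the other 12 genes.

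At an adjusted p under 0.05, 2 clusters were higher in C5aR+ LysoDC (0.00592% of those tested) and 32 were lower (0.0947%). By gene these were 2 higher (0.00902% of 22180) and 29 lower (0.131%). None of the 34 clusters overlapped between arrays. The 32 lower clusters had differences of -1.05 to -4.88, with a median of -2.35, and the gap between the nearest arrays of the 2 populations was 0.90 to 3.94 with a median of 1.59 over the 29 genes. Over all genes the median difference was 0.01. At an unadjusted p under 0.05 the directions were closer in number, with 583 genes higher (2.63%) and 838 lower (3.78%). By cluster these were 796 and 1049, and without C5aR- array 2 they were 465 and 700. Arrays were separate for 1246 higher genes (5.62%) and 1317 lower genes (5.94%), and these shares stand beside the lists described further on. They give no test of the lists, which were chosen with earlier results of these data known. They are also not matched for level. Of all genes 8574 lay below every array median in both populations, against 2 of 50 lysosomal genes and 12 of 18 eosinophil and mast cell markers.

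**Figure D2:**
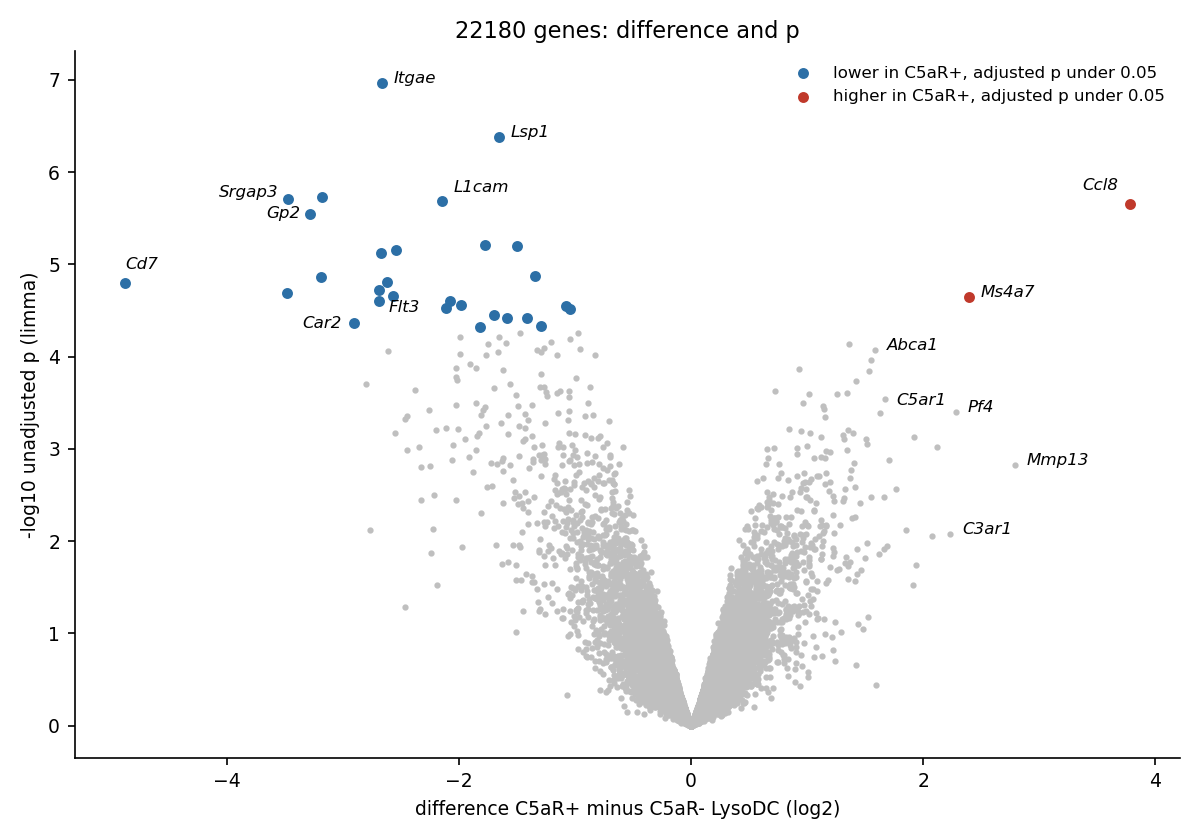
Difference between C5aR+ and C5aR- LysoDC (x axis, log2) against -log10 of the unadjusted limma p (y axis) for 22180 genes. Coloured points are the 2 genes higher and 29 genes lower in C5aR+ cells at an adjusted p under 0.05, and grey points are the other genes. Itgae has the smallest p, Cd7 the largest fall and Ccl8 the largest rise.

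The calls depended on single arrays. Without C5aR+ arrays 1, 2 and 3 the higher and lower calls became 0 and 1, 1 and 6, and 2 and 6, and without C5aR- arrays 1, 2 and 3 they became 1 and 5, 0 and 5, and 2 and 65. Without LysoMac arrays 1 and 2 they were 1 and 8, and 2 and 15. Itgae passed in all 20 alternative analyses and Lsp1 in 19, the exception being the fit without C5aR+ array 1 (adjusted p = 0.0714). The other 29 called genes passed in 6 to 16 of the alternatives, and 0 of the 31 changed direction in any of them.

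The chemokine gene Ccl8 and the membrane protein gene Ms4a7 were the 2 genes that rose in C5aR+ LysoDC. Ccl8 encodes a chemokine that attracts monocytes and other leukocytes, and Ms4a7 is a marker of tissue macrophages. Ccl8 read 5.62, 5.64 and 7.02 in C5aR+ and 2.52, 2.42 and 2.00 in C5aR- arrays. Array C5aR+ 3 was the highest, and all C5aR- values lay below the array medians, so the rise of 3.78 ± 0.36 (adjusted p = 0.0124) is a lower bound. Ms4a7 read 9.15, 9.02 and 8.87 in C5aR+ arrays and 7.24, 6.08 and 6.54 in C5aR- arrays. It was well above the array medians in both populations and 2.39 ± 0.30 higher, or 5.25-fold (adjusted p = 0.0346). The Ccl8 promoter is shown because this gene has the largest rise, and that of C5ar1 because its product defines the sort. Sequences are from RefSeq (GRCm38.p6), from 250 bases before to 50 after the start, and run 5′ to 3′ on the gene's strand. Ccl8 lies on the plus strand of chromosome 11, at chr11:82114935-82115234, and C5ar1 on the minus strand of chromosome 7, at chr7:16259289-16259588. Capitals mark matches, on either strand, to the EICE motif (GGAA and GAAA with 2 bases of any kind between), which joins sites of ETS and IRF factors, to the CHR motif (TTTGAA or TTCGAA), or to the CCAAT box (CCAAT).
Ccl8: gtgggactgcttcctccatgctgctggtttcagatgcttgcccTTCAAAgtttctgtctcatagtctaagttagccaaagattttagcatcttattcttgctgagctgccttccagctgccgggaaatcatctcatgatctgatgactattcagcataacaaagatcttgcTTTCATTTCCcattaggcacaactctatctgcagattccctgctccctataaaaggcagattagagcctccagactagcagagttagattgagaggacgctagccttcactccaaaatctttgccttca
C5ar1: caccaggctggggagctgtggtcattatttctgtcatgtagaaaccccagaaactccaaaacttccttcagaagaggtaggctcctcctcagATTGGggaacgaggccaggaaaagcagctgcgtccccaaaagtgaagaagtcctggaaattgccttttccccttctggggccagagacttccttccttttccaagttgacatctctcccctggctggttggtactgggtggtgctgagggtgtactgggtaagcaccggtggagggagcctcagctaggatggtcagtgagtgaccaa
The Ccl8 window held 1 EICE match beginning at -79 and 1 CHR match beginning at -207, counted from the start as +1, with no base shared between motifs. The EICE motif occurred in 3.16% of 27025 genes with such a window and in 4 of 30 macrophage genes, Ccl8 among them. It also occurred in 2 of 31 conventional dendritic cell genes and in 2 of 20 genes called lower in C5aR+ cells. The C5ar1 window held 1 CCAAT match, at -158, and no EICE match. Neither of the 2 windows of Ms4a7, the other gene that rose, held an EICE match. A match describes the sequence and was not tested against binding.

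Next to Ms4a7, other members of the Ms4a family of tetraspanning membrane proteins also read higher in C5aR+ cells. Arrays were separate in that direction for 7 of 20 members (35%) and in the other for 0, with a median of 0.28, and Ms4a7 alone passed. Ms4a4a read 8.51, 8.08 and 9.19 against 7.45, 7.32 and 7.97, a difference of 1.01 ± 0.34 (adjusted p = 0.606). Ms4a6c was higher in level but differed less, by 0.48 ± 0.16, with 11.30, 11.18 and 11.14 against 10.90, 10.45 and 10.82. Its arrays were also separate, with C5aR- array 1 nearest to the C5aR+ arrays.

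Macrophage genes leaned towards C5aR+ LysoDC. Of 42 listed macrophage identity genes, 38 had a difference above 0, 22 had separate arrays in that direction (52.4%) and 0 in the other, and the median was 0.71. C5ar1, whose product defines the sort, is among these separate genes. Several members recur on other lists, so those lists partly count the same genes. Examples are Ccl8 (chemokines), Mertk (efferocytosis), Apoe (lipid), C1qc (complement) and Tlr7 (pattern recognition). Ccl8 and Ms4a7 passed, and 22 members were higher at an unadjusted p under 0.05, a count that lay between 15 (without C5aR- array 2) and 24 when single arrays were left out. Selenop, a selenoprotein secreted by macrophages among other cells, read 7.19, 6.89 and 7.24 against 6.20, 6.07 and 6.26 (0.93 ± 0.15, adjusted p = 0.0735). Csf1r, the receptor for the macrophage growth factor CSF1, read 11.07, 10.49 and 11.05 against 9.85, 9.80 and 10.34. Its difference of 0.87 ± 0.29 did not pass (adjusted p = 0.581), although the lowest C5aR+ array was still above the highest C5aR- array. The mean level of the macrophage list was 6.53, 6.55 and 7.04 in the C5aR+ arrays and 5.81, 5.74 and 6.21 in the C5aR- arrays. Array 3 was the highest in both populations.

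Genes for taking up and handling dying cells and lipid also read higher in part. Abca1, the transporter that exports cholesterol from cells, read 8.13, 8.12 and 8.44 in C5aR+ arrays and 6.82, 6.41 and 6.70 in C5aR- arrays. The C5aR+ values lay close together and above every C5aR- value. The difference of 1.59 ± 0.24 (3.00-fold) did not pass (adjusted p = 0.0593), and it passed in 8 of 20 alternatives. Mertk, a receptor for dying cells, read 7.69, 7.28 and 6.54 against 5.98, 5.64 and 5.84 (1.35 ± 0.26, adjusted p = 0.157). Itgb5, an integrin chain that also serves this uptake, differed by 1.16 ± 0.33 and the bridging protein gene Gas6 by 0.70 ± 0.20, a lower bound from C5aR- values below every array median, neither past the test. Of 29 efferocytosis genes, 6 were separate and higher and 2 separate and lower, with a median of 0.33. Of 24 lipid and cholesterol genes these counts were 8 and 1, with a median of 0.48. Apoe, a lipid carrier, differed by 0.65 ± 0.14, Trem2, a lipid-sensing receptor, by 0.60 ± 0.19 and the cholesterol exporter gene Abcg1 by 0.69 ± 0.23, each with separate arrays. None of the genes on these lists passed over all genes in limma, where 8 efferocytosis genes were higher and 3 lower, and 7 lipid genes higher and 0 lower, at an unadjusted p under 0.05. Without C5aR+ array 3 the higher genes were 4 of each list, and without C5aR- array 2 they were 5 and 4. The 3 lower efferocytosis genes became 0 without C5aR+ array 1 or C5aR- array 2, and 1 without C5aR- array 3.

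Lysosomal genes leaned higher by small amounts, without passing. Of 50 members 45 had a difference above 0, arrays were separate for 20 (40%) in that direction and for 0 in the other, and the median was 0.42. In limma 0 passed, with 13 higher and 1 lower at an unadjusted p under 0.05, and the 13 became 4, 6, 8 and 20 without C5aR- array 2, C5aR+ array 1, C5aR+ array 3 and LysoMac array 2. Cathepsin D (Ctsd), an aspartic protease of the lysosome, read 8.52, 8.18 and 8.07 against 7.24, 6.95 and 7.17 (1.14 ± 0.21, adjusted p = 0.116). The lowest C5aR+ value thus stood above the highest C5aR- value. Pld3, a lysosomal nuclease, differed by 0.99 ± 0.24, Tpp1, a peptidase, by 0.91 ± 0.30 and Scarb2, a membrane protein, by 0.66 ± 0.22. Mitf and Tfec, related transcription factors, differed by 1.19 ± 0.29 and 1.16 ± 0.25 and did not pass. Tfeb, a transcription factor on the lysosome list, differed by 0.13 ± 0.15 with overlapping arrays. A part of these factors in the lysosomal genes was not tested.

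Of 25 complement genes 16 had a difference above 0 and 9 below, with a median of 0.19, and 9 lay below every array median in both populations. C3ar1, the receptor for C3a and a relative of C5ar1, read 6.88, 7.25 and 9.0 against 5.14, 4.72 and 6.57. Arrays 3 were the highest of both populations, and the difference of 2.23 ± 0.67 did not pass (adjusted p = 0.508). C1qc, a chain of the first complement component, varied little within a population, at 8.47, 8.26 and 8.34 against 7.39, 7.23 and 7.55. It differed by 0.97 ± 0.17 (1.95-fold, adjusted p = 0.112). C6, a part of the membrane attack complex, differed by 1.63 ± 0.30 from C5aR- values below every array median. Cr2, a complement receptor of B cells and follicular dendritic cells, had separate arrays the other way (-0.67 ± 0.16). In all, 7 complement genes, C5ar1 among them, were separate and higher, 1 lower, and 0 passed in limma, where 7 were higher and 1 lower at an unadjusted p under 0.05.

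Among 32 chemokines 7 were separate and higher and 0 lower, with Ccl8 the one that passed, and 6 were higher and 2 lower at an unadjusted p under 0.05. Xcl1, a chemokine for XCR1-bearing dendritic cells, read 2.94, 4.58 and 3.33 against 5.61, 5.54 and 4.56, with an overlap of C5aR+ array 2 and C5aR- array 3 (-1.62 ± 0.42, adjusted p = 0.352). Pf4, a chemokine of platelets and some macrophages, read 6.66, 6.78 and 7.81 against 4.77, 4.30 and 5.33, and the difference of 2.28 ± 0.42 did not pass (adjusted p = 0.123). Cxcl2, which attracts neutrophils, differed by 0.67 ± 0.17. Among 32 chemoattractant receptors 11, C5ar1 of the sort included, were separate and higher and 4 separate and lower. In limma 0 passed, and 9 and 4 had an unadjusted p under 0.05. Fpr2, a formyl peptide receptor, read 9.34, 9.24 and 8.94 against 8.40, 8.06 and 8.22 (0.95 ± 0.19). Its C5aR+ values were all higher, as were those of C5ar1 and C3ar1. Ccr7, which guides dendritic cells to T cell zones, went the other way, at 6.17, 6.77 and 6.77 against 8.62, 8.73 and 7.92 (-1.85 ± 0.29, adjusted p = 0.0735). P2ry10, a receptor for lysophospholipids, read 5.61, 6.17 and 5.47 against 7.50, 8.29 and 7.44 (-1.99 ± 0.29, adjusted p = 0.0550).

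Further large differences on the higher side varied between arrays. Mmp13, a collagenase, read 4.22, 5.47 and 6.99 against 2.02, 3.22 and 3.07, a lower bound of 2.79 ± 0.62 (adjusted p = 0.217). Fcgr4, an activating receptor for IgG, read 7.50, 7.51 and 9.56 against 5.33, 5.69 and 7.33. In both genes C5aR+ array 3 was the highest, and for Fcgr4 C5aR- array 3 came close to the lower C5aR+ arrays. Lilra5, Il18bp (an inhibitor of IL-18), Hpgds (a prostaglandin D synthase) and Tspan10 ran the opposite way among the C5aR+ arrays, with array 3 the lowest. Tspan10 read 7.15, 6.39 and 5.39 against 4.93, 4.17 and 4.84, and Il18bp 8.81, 8.22 and 7.16 against 7.03, 5.47 and 6.14. Creb5, a transcription factor, and Pgf, a growth factor of the VEGF family, differed by 1.92 ± 0.39 and 1.66 ± 0.53. None of these 8 genes passed over all genes, their adjusted p lying between 0.165 and 0.566.

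Receptors for microbial products read mostly higher. Of 37 pattern recognition receptors 30 had a difference above 0 and 10 were separate and higher (27%) against 0 lower, with a median of 0.30. Tlr7, a sensor of single-stranded RNA, read 7.97, 6.95 and 7.81 against 6.35, 5.19 and 6.09 (1.70 ± 0.37, adjusted p = 0.213). The lowest C5aR+ array exceeded the highest C5aR- array by less than the spread within either population. Clec4d, a lectin receptor for mycobacterial lipid, differed by 1.55 ± 0.39, Tlr3, a sensor of double-stranded RNA, by 0.84 ± 0.17 and Tlr1 by 0.88 ± 0.26. Colec12, a scavenger receptor of the collectin family, differed by 1.54 ± 0.25 (adjusted p = 0.0735). In limma 0 pattern recognition receptors passed, with 6 higher and 1 lower at an unadjusted p under 0.05.

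Of the listed genes of conventional dendritic cells 3 fell in C5aR+ LysoDC: Itgae, Flt3 and Bcl11a. Itgae read 5.15, 5.23 and 4.84 in C5aR+ and 7.61, 7.94 and 7.66 in C5aR- arrays. The arrays of each population lay close together, and the fall of -2.67 ± 0.18, or 6.34-fold, had the smallest p of all clusters (adjusted p = 0.00364). Flt3 read 4.23, 4.47 and 4.47 against 6.54, 8.02 and 6.68. C5aR- array 2 was the highest, and the difference was -2.69 ± 0.34, or 6.45-fold (adjusted p = 0.0355). Bcl11a, a transcription factor of B cells and plasmacytoid dendritic cells, read 3.38, 3.43 and 3.56 against 4.51, 4.51 and 4.59 (-1.08 ± 0.14, adjusted p = 0.0368), while its second, dimmer cluster differed by -0.08. The Flt3 promoter (minus strand of chromosome 5, chr5:147400440-147400739) is shown as that of the growth factor receptor that fell, for comparison with the windows above.
Flt3: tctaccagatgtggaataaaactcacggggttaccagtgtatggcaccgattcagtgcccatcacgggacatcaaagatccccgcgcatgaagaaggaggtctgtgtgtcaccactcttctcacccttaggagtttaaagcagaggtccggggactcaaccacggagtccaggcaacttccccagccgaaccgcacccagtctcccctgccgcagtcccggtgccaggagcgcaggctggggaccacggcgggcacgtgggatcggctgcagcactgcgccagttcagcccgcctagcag
No match to the EICE, CHR or CCAAT letters lies in this window, which is why it has no capitals.

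Over the 41 listed conventional dendritic cell genes 33 had a difference below 0, and the median was -0.56. Arrays were separate and lower for 17 (41.5%) and separate and higher for 2. These 2 were P2ry14 (1.23 ± 0.37) and Tlr3 (0.84 ± 0.17), neither past the test. At an unadjusted p under 0.05, 18 were lower, and 14 to 20 were when single arrays were left out. Zbtb46, a transcription factor of this lineage, read 4.01, 3.77 and 4.26 against 5.15, 5.45 and 4.86 (-1.15 ± 0.21, adjusted p = 0.127). Kit, the receptor for stem cell factor, read 7.11, 7.53 and 6.84 against 9.08, 10.19 and 9.0, with C5aR- array 2 again the highest, and differed by -2.26 ± 0.41 (adjusted p = 0.121). The lectin gene Mgl2 differed by -1.0 ± 0.23. Irf8, Relb and Xcr1, also on the list, differed by -0.01, -0.07 and 0.13 with overlapping arrays. The mean level of the list was 6.0, 6.15 and 6.17 in the C5aR+ arrays and 6.76, 6.92 and 6.71 in the C5aR- arrays. The populations were separate, with array 3 the nearest to the other population on both sides.

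Maturation and migration genes of dendritic cells had a median of -0.32 over 24 members, with 5 separate and lower and 1 separate and higher. Serpinb6b, an inhibitor of serine proteases, passed at 4.45, 5.00 and 4.43 against 6.75, 7.19 and 6.16 (-2.08 ± 0.27, or 4.22-fold, adjusted p = 0.0355). C5aR- array 3 was the lowest of its group and still stood above all C5aR+ arrays. Traf1, an adaptor of TNF receptors, differed by -0.84 ± 0.20. MHC class II presentation genes had a median of -0.01 over 20 members, with 2 separate and higher, 3 separate and lower and 0 passing in limma (1 each way at an unadjusted p under 0.05). H2-Aa and H2-Eb1, chains of the class II molecules, differed by 0.03 ± 0.14 and -0.02 ± 0.18 with overlapping arrays. H2-Oa, part of the H2-O protein that restrains peptide loading, read 5.98, 6.18 and 5.34 against 8.08, 7.82 and 7.31. It was thus lower in every C5aR+ array, by -1.90 ± 0.30 (adjusted p = 0.0701), and its partner H2-Ob differed by -0.54 ± 0.27.

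**Figure D3:**
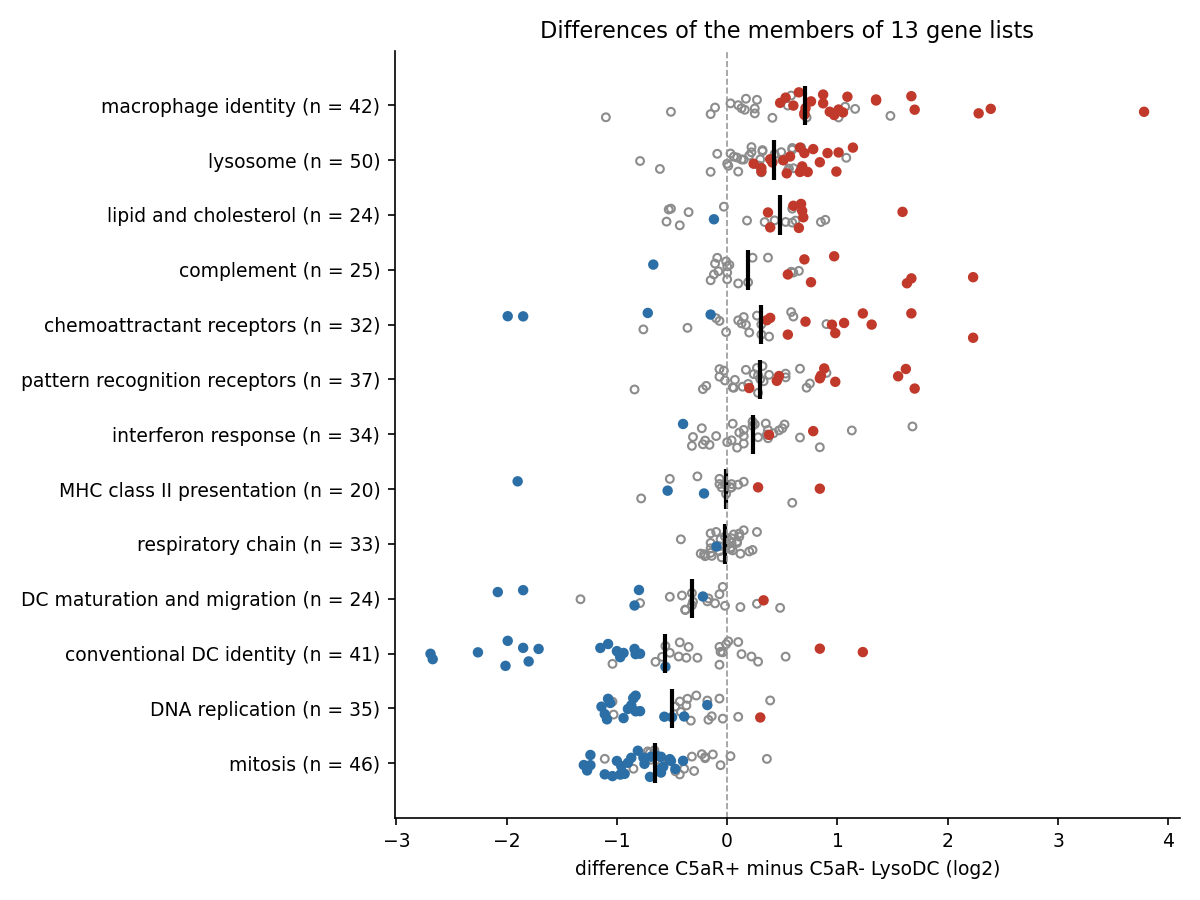
Differences between C5aR+ and C5aR- LysoDC (x axis, log2) for the measured members of 13 gene lists. Each point is a gene, filled where the 3 and 3 arrays do not overlap (red higher, blue lower in C5aR+ cells) and open where they do, and black bars are list medians, from 0.71 for macrophage genes to -0.65 for mitosis genes.

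Of the 29 genes that fell, Cd7, an immunoglobulin family protein best known from T and NK cells, fell most. It read 5.15, 5.74 and 5.59 against 11.09, 10.35 and 9.68, a difference of -4.88 ± 0.59, or 29.4-fold (adjusted p = 0.0335). The gap between the lowest C5aR- and the highest C5aR+ array, 3.94, was the widest among the genes that fell. L1cam, an adhesion molecule that dendritic cells use to cross endothelium, read 4.02, 3.52 and 4.23 against 5.99, 6.03 and 6.21 (-2.15 ± 0.20, or 4.43-fold, adjusted p = 0.0124). Plp2, a small membrane protein, fell by -2.67 ± 0.29 on 1 cluster and by -1.65 ± 0.21 on its other, both past the test. Cd209d, a lectin of the DC-SIGN family, fell by -1.70 ± 0.23 (adjusted p = 0.0416) to values below every array median.

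Cd209a, the DC-SIGN relative of mouse dendritic cells, has 2 clusters that disagree. One read 5.13, 5.49 and 5.23 against 8.20, 9.34 and 9.54 and passed (-3.75 ± 0.47, adjusted p = 0.0346). The other, with the higher mean over all arrays, read 6.67, 6.57 and 6.32 against 6.55, 5.61 and 5.82, with overlapping arrays and a difference of 0.53. That mean included the LysoMac arrays, where the cluster that passed averaged 4.47. In C5aR+ and C5aR- LysoDC the cluster that passed averaged 5.28 and 9.03, and the other 6.52 and 5.99. By this choice the gene was not counted among those that fell. It entered the conventional dendritic cell list with the difference of 0.53, and is named here after its values were seen.

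Of the integrin genes Itgae alone passed. Itgb7, the partner chain of CD103, read 3.99, 4.89 and 5.54 against 6.32, 7.05 and 7.13. All C5aR+ arrays were lower, array 3 the least, and the difference of -2.02 ± 0.36 did not pass (adjusted p = 0.115). Itga9 ran the other way, at 7.73, 7.60 and 8.08 against 6.44, 6.05 and 6.65 (1.42 ± 0.24, adjusted p = 0.0860). Over 29 integrin and cadherin genes 4 were separate and higher and 4 lower, 2 fell (Itgae and the cadherin gene Cdh1) and the median was -0.00.

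Of the 29 falls, 3 were on the list of epithelial and M cell markers: Gp2, Pglyrp1 and Cdh1. Gp2, a receptor for bacterial pili on M cells, read 3.62, 4.68 and 4.10 against 6.93, 8.01 and 7.31, and fell by -3.28 ± 0.32, or 9.75-fold (adjusted p = 0.0136). Every C5aR- array stood well above the highest C5aR+ array. Cdh1, which encodes E-cadherin, fell by -2.11 ± 0.28 (adjusted p = 0.0368), although its second, dimmer cluster differed by 0.08, and Cdh17, an intestinal cadherin gene on none of the lists, fell by -2.62 ± 0.32 (adjusted p = 0.0335). Pglyrp1, an antibacterial peptidoglycan-binding protein, fell by -2.54 ± 0.28, Car2, a carbonic anhydrase, by -2.91 ± 0.40 and Tmprss11d, a membrane serine protease, by -3.18 ± 0.30, the last to values below every array median. Pigr, which carries IgA across epithelium, read 4.60, 4.60 and 4.22 against 7.91, 7.27 and 6.08, with C5aR- array 3 well under the others, and did not pass (-2.62 ± 0.39, adjusted p = 0.0593). Most epithelial markers did not pass: of 30 markers of epithelium and M cells 3 fell (Gp2, Pglyrp1 and Cdh1), 6 were separate and lower, 3 separate and higher, and the median was -0.03. Epcam, present on all gut epithelial cells, read 3.81, 3.99 and 3.58 against 4.58, 5.15 and 4.55 (-0.97 ± 0.21, adjusted p = 0.217). The epithelial structural gene Vil1 averaged 2.74 and 2.52, and Krt20 averaged 2.96 and 2.93, below every array median in both populations. The mean level of the list was 4.02 to 4.12 in C5aR+ arrays and 4.34 to 4.50 in C5aR- arrays, and its part in these falls was not tested.

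Lsp1 had the next smallest p after Itgae among the genes that fell. Lsp1, an actin-binding protein of leukocytes, read 7.78, 7.81 and 7.58 against 9.41, 9.48 and 9.24. The arrays of each population lay close together, and the fall was -1.66 ± 0.13, or 3.16-fold (adjusted p = 0.00701). S100a4, a calcium-binding protein linked to cell motility, read 6.46, 7.13 and 6.61 against 9.75, 9.51 and 9.02 (-2.69 ± 0.33, or 6.46-fold, adjusted p = 0.0346). S100a3, S100a11 and Anxa6 of the same calcium-binding list differed by -2.33, -0.63 and -1.17 with separate arrays and did not pass. Srgap3 and Chn2, which encode GTPase-activating proteins, fell by -3.48 ± 0.33 and -1.35 ± 0.16, Map9, a microtubule protein, by -1.78 ± 0.19 and Ppp1r14a, an inhibitor of myosin phosphatase, by -1.98 ± 0.26. C5aR+ values of Srgap3 and Map9 lay below every array median.

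The remaining falls were of mixed function. Tnip3, an inhibitor of NF-kappaB signalling, read 3.66, 4.13 and 5.06 against 6.96, 7.88 and 7.56 (-3.19 ± 0.38, or 9.10-fold, adjusted p = 0.0335). C5aR+ array 3 was the highest of its group and still well below the lowest C5aR- array. Metabolic enzyme genes among the falls were Ephx2, an epoxide hydrolase (-2.57 ± 0.32, a lower bound in size), Upb1 of pyrimidine breakdown (-1.58 ± 0.21) and Galnt12 of protein glycosylation (-1.50 ± 0.16, adjusted p = 0.0229). Slc46a3, a lysosomal transporter, fell by -1.82 ± 0.25, Tagap1, a GTPase-activating protein of T cells, by -1.41 ± 0.19 and Pglyrp2, a peptidoglycan amidase, by -1.29 ± 0.18. The C5aR+ averages of Tagap1 and Pglyrp2 lay below every array median, so these falls are lower bounds in size. Plekhs1 fell by -3.48 ± 0.43, from 6.80, 6.52 and 4.94 in the C5aR- arrays to values between 2.10 and 2.91, again a lower bound. Lrr1 lay below every array median in both populations (-1.05 ± 0.14), so its difference is one of background-level signals. One further cluster without a gene symbol fell by -2.93 ± 0.35.

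Cell cycle genes leaned lower in C5aR+ LysoDC by small amounts, without passing. Of 46 mitosis genes 44 had a difference below 0, 26 had separate arrays in that direction (56.5%) and 0 in the other, with a median of -0.65. Of 35 DNA replication genes these numbers were 32, 17 (48.6%) and 1, with a median of -0.50. In limma 0 of either list passed, where 26 mitosis and 17 replication genes were lower, and 0 higher, at p under 0.05 before adjustment. Esco2, a cohesin acetyltransferase, came closest, at 3.60, 3.44 and 3.53 against 4.32, 4.50 and 4.66 (-0.97 ± 0.14, adjusted p = 0.0521). Nusap1, a spindle protein, read 4.77, 4.71 and 4.69 against 5.83, 5.92 and 6.23 (-1.27 ± 0.19, or 2.41-fold, adjusted p = 0.0593). The C5aR+ arrays of both genes lay close together and below all C5aR- arrays. The kinesin genes Kif23 and Kif15 differed by -1.24 ± 0.22 and -1.0 ± 0.20. Of the replication genes, Lig1, a DNA ligase, differed by -1.09 ± 0.27, the helicase subunit Mcm6 by -1.08 ± 0.27, Tyms, which makes thymidylate, by -0.85 ± 0.16 and the origin licensing factor Cdc6 by -0.83 ± 0.21.

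The mean level of the mitosis list was 4.37, 4.35 and 4.45 in the C5aR+ arrays and 4.70, 5.28 and 5.13 in the C5aR- arrays. For DNA replication it was 5.03, 5.13 and 5.31 against 5.41, 5.92 and 5.80. C5aR- array 1 was the lowest of its group for both lists, though above all C5aR+ arrays. The count of mitosis genes lower at an unadjusted p under 0.05 was 36 without that array and 15 without C5aR- array 2. It was 17 without C5aR- array 3 and 18 without C5aR+ array 1. Replication genes numbered 11 without C5aR- array 2.

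**Figure D4:**
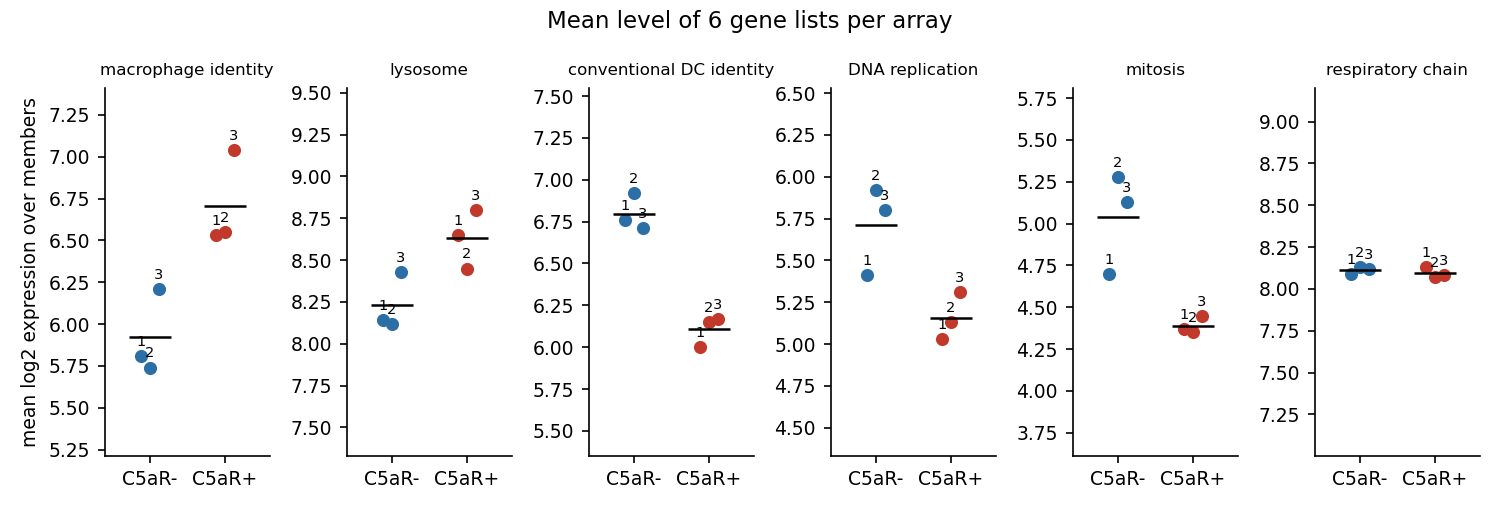
Mean log2 level of 6 gene lists (y axis) in each C5aR- (blue) and C5aR+ (red) LysoDC array. Points are arrays with their replicate numbers, bars are means of 3 arrays, and each panel spans the same range of log2 units around its own mean. The arrays of the 2 populations are separate for all lists but the respiratory chain, where they lie between 8.07 and 8.13.

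Promoter windows near the starts of mitosis genes are shown as a description of sequence. The CHR is an element through which many mitosis genes are known to be held down in resting cells. Windows run from 100 bases before to 50 after the start (GRCm38.p6), with CHR and CCAAT matches on either strand in capitals: Kif23 at chr9:61946750-61946899 (minus strand), Kif15 at chr9:122950981-122951130 (plus strand) and Nusap1 at chr2:119618198-119618347 (plus strand).
Kif23: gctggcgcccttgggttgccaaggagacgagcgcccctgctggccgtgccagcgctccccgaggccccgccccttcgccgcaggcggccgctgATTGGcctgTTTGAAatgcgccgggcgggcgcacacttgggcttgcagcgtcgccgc
Kif15: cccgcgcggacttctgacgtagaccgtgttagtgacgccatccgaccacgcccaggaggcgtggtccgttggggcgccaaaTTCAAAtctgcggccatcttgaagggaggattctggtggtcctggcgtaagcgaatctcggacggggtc
Nusap1: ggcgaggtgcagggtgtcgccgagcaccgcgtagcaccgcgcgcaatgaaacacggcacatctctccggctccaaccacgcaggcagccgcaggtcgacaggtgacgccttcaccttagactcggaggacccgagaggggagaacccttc
Kif23 held a CHR match at 3 and a CCAAT match at -7, Kif15 a CHR match at -19, and Nusap1 no match to these letters. Of the 40 mitosis genes with a 300-base window 33 held a CHR match (82.5%), against 21.7% of all 27025 genes and 5 of 31 DNA replication genes (16.1%). The CCAAT box was in 70% of mitosis and 61.3% of replication windows, against 41.1% of all. Of the 20 genes called lower that have a window, 1 held a CHR match (5%). The shares of the lists describe sequences and use no array values, while the 20 genes called lower were defined by the arrays. The lists and motifs were chosen with earlier results of these data known. A part of the CHR in the differences was not tested.

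The other lists held few or no calls. The 33 respiratory chain genes had a median of -0.02, with 0 separate and higher and 1 separate and lower, and 0 passed in limma (0 at an unadjusted p under 0.05). Interferon response genes had a median of 0.23, with 2 of 34 separate and higher and 1 lower, and iron and haem genes of 0.26, with 4 of 19 (21.1%) and 0. In the 20 genes of tissue dissociation and RNA quality the median was -0.08, 2 were separate and higher and 1 lower, and the level lay between 8.06 and 8.12 in C5aR+ and between 8.14 and 8.25 in C5aR- arrays. Nr4a1, an immediate early gene of that list, read 8.76, 8.31 and 9.31 against 10.06, 9.87 and 9.93 (-1.16 ± 0.29), with all C5aR+ arrays lower. Growth factor receptors had a median of 0.09 over 24, lineage transcription factors of -0.02 over 40, C-type lectins of -0.00 over 33 and S100 and annexin genes of 0.03 over 24. Each of these 4 lists held separate genes in both directions and 1 gene that fell. The signs of these 4 medians, like those of the integrin, MHC class II and respiratory chain lists, changed in some alternatives.

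Markers of other cells that a CD11c sort could hold were measured beside these results, and their part in them was not tested. B cell markers had a median of 0.22 over 17, with a list level of 4.97, 5.00 and 5.42 in C5aR+ arrays and 4.96 to 5.13 in C5aR- arrays. Plasma cell markers had a median of -0.05 over 9, and C5aR+ array 3 had the highest level of the 6 arrays, at 6.20 against 5.29 to 5.77. T cell markers had a median of 0.16 over 12, NK and innate lymphoid markers of -0.19 over 14, neutrophil markers of -0.03 over 18, eosinophil and mast cell markers of 0.06 over 18 and stromal markers of 0.07 over 23. None of these lists held a gene that passed in limma, where 5 genes were higher and 12 lower at an unadjusted p under 0.05. Plasmacytoid dendritic cell markers had a median of 0.06 over 17 and 2 falls, Cd209d and Upb1, with 5 separate and lower (29.4%) and 1 separate and higher. The level of this list was 5.14 to 5.29 in C5aR+ and 5.44 to 5.70 in C5aR- arrays, while Siglech, their defining lectin, averaged 5.06 and 4.96 with overlapping arrays. Monocyte genes had a median of 0.12 over 30, with S100a4 falling, and were highest in C5aR+ array 3 (6.86, against 6.0 and 6.01 in the other C5aR+ arrays and 6.17 to 6.52 in C5aR- arrays). Gda, a guanine deaminase on that list, read 7.15, 6.64 and 6.57 against 5.42, 4.77 and 5.51 and did not pass (1.55 ± 0.24, adjusted p = 0.0647). Its values were separate and did not follow array 3.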

How the data were processed

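RNA of sorted Peyer's patch phagocytes was amplified (GeneChip WT Pico) and hybridised to 9 Affymetrix arrays of the mouse transcriptome, 3 per population. The authors deposited log2 expression values per transcript cluster, made with RMA and Affymetrix Power Tools per the submitters' processing notes; the sources used here give no versions. Values ran from 0.719 to 13.2 and were used unchanged and unfiltered. The number of arrays limits the precision.

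Differences were tested two-sided with limma 3.58.1 (R 4.3.3). The model held the 3 population means over 9 arrays (6 residual degrees of freedom), and Benjamini-Hochberg adjustment over all 33793 clusters. The fit assumes 1 variance per cluster for all populations, while the mean variance was 0.179 in LysoMac and 0.0958 and 0.0854 in C5aR+ and C5aR- LysoDC. The script was tested on simulated data made with that same assumption, which says nothing about the unequal variances. GEO's platform annotation named 1 gene for 23521 clusters, several for 1814 and none for 8458. The cluster with the highest mean over the 9 arrays stood for each of 1082 genes with several. Of 846 genes on 34 lists 772 were matched. Lists are described by counts and medians with no test of their own.

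Named genes were 5 marker genes, sort targets and lysozyme genes, every called gene, the 15 largest increases and 15 largest decreases among genes with separate arrays and a higher population above the median of all values, and the 4 members of each list with the smallest p. Predicted genes, small RNA genes, olfactory and vomeronasal receptors and segments of antigen receptors were not named from the called and largest. The members, lists and motifs were chosen with earlier results of these data known. Alternatives were a replicate block, other normalizations, weights, variance models, filters and leaving out each array.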

Additional observations from a re-analysis of the deposited data

How the results depend on the processing

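The 2 higher and 32 lower clusters became 7 and 39 after quantile normalization, 8 and 54 after cyclic loess, 2 and 30 with each array centred on its median, 2 and 33 with an intensity trend and 2 and 30 with robust variances. They became 19 and 93 with 1 weight per population and 23 and 101 with 1 weight per array. Testing only the 17719 clusters above the median in 3 arrays gave 7 and 53, and only those with 1 symbol 5 and 52. The 6 LysoDC arrays alone gave 1 and 6, with 5 of the 31 genes still called. Leaving out single arrays gave 0 to 3 higher and 1 to 65 lower clusters. The causes were not tested, beyond the smaller number of arrays or clusters in those fits. Adding a block for the replicate number gave 12 higher and 47 lower clusters, and 26 of the 31 genes were still called. Same-numbered LysoDC arrays correlated in their deviations from the group means at 0.232, -0.0271 and 0.199. For arrays 1 and 3 the same-numbered array was the best match in both directions. C5aR+ array 2 correlated best with C5aR- array 1 (0.174). The labels name no batch, and whether same-numbered arrays share more than a number was not tested. Of the 123 named genes that did not pass, 30 passed in at least 1 alternative and none in more than 8. Medians of 20 lists kept their sign in all 20 alternatives. Those of the other 14, all within 0.12 of 0, changed sign in at least 1. Values near the array medians limit what can be read from dim genes: 10 of the 31 called genes had their lower population below every array median.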

Other observations

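A few genes with separate arrays, most of them members of the lists above, were not yet given by value, and none of those here passed over all genes. On the higher side in C5aR+ LysoDC were genes of haem and iron handling. Blvrb, which reduces biliverdin, read 6.22, 6.47 and 6.46 against 5.37, 4.73 and 5.59 (1.15 ± 0.22, adjusted p = 0.132), and Hp, the haptoglobin gene, read 7.60, 7.99 and 7.24 against 6.68, 6.02 and 6.82 (1.11 ± 0.26, adjusted p = 0.258). Cp, the ferroxidase gene ceruloplasmin, read 8.66, 8.26 and 8.31 against 6.99, 7.17 and 7.59 (1.16 ± 0.44, adjusted p = 0.747). In each of the 3 genes every C5aR+ array was the higher, and C5aR- array 3 came nearest. Pdpn, the podoplanin gene of stromal cells and some macrophages, varied among the C5aR+ arrays, at 4.83, 6.02 and 6.56 against 4.65, 4.34 and 4.59 (1.28 ± 0.37, adjusted p = 0.465).

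On the lower side, Lum, which encodes the matrix protein lumican of fibroblasts, read 2.75, 2.73 and 2.60 against 5.52, 5.84 and 3.49, so that C5aR- array 3 was far below the other C5aR- arrays. Klrd1, the CD94 gene of NK cells, read 2.20, 2.98 and 2.45 against 4.19, 5.43 and 4.18, with all C5aR+ values below the array medians. Atp1b1, a subunit of the sodium pump, read 3.97, 4.45 and 4.69 against 6.02, 7.05 and 6.14 (-2.03 ± 0.33, adjusted p = 0.0816). Cpe, a carboxypeptidase that trims prohormones, read 3.59, 3.36 and 2.64 against 6.73, 6.34 and 4.91. As for Plekhs1, Car2, Pigr and Lum, the lowest C5aR- value of Cpe was that of array 3. The same array was the lowest C5aR- array for 17 of the 29 genes that fell, against 11 for array 1 and 1 for array 2. The share over all genes was not counted. Spn, which encodes the sialoglycoprotein CD43, read 4.75, 4.78 and 4.88 against 6.22, 6.15 and 5.36 (-1.11 ± 0.23, adjusted p = 0.184).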
